A study of Mus musculus with 6 samples.

Results

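Most mitochondrial proteins are encoded in the nucleus, made in the cytosol and imported, and the genes described here encode the import machinery, the chaperones that fold the imported chains and the proteases that trim or destroy them. The genes were chosen by name: every gene whose symbol opens with Tomm or Timm and a digit, plus 16 named chaperones, proteases, peptidases and prohibitins. Of the 18014 genes with a probe of their own, 37 were members, and all 37 were measured on all 6 arrays with no missing value. Grpel1 and Pmpca had no probe of their own, and Timm8b and Timm10b were on probes shared with another gene, so these were not analysed here. Where a gene had several probes, the brightest probe (by mean log2 intensity) stood for it, which applied to 7 members.

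The study used 3T3-L1 cells, a mouse preadipocyte line, brought to confluence, turned into adipocytes with an adipogenic mixture and harvested 10 days after differentiation. It compared 3 arrays of adipocytes expressing uncoupling protein 1 (UCP1) with 3 arrays of control adipocytes that carried only the Tet-off plasmid. UCP1 is the carrier of brown fat that lets protons re-enter the mitochondrial matrix without ATP synthesis. The titles of the UCP1 arrays end in UCP1, UCP2 and UCP3, but the source field names uncoupling protein 1 for all 3, and that field set the group. The labels do not give the promoter that drove UCP1, any doxycycline treatment or whether a line was 1 clone. Nor do they say that the arrays stand for separate cultures, so the error behind each p-value is that between arrays and may be technical.

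A precursor protein meets receptors on the outer membrane, passes the pore of the translocase there, and is then sorted. Chains with a cleavable presequence go through the Timm23 channel and are pulled in by a motor built on the matrix chaperone Hspa9. Carrier proteins, the family that UCP1 belongs to, are instead escorted across the intermembrane space by small chaperones and inserted into the inner membrane by the Timm22 complex. In the matrix, a peptidase removes the presequence and chaperonins fold the chain. When matrix proteins misfold, mammalian cells are known to raise genes such as Hspd1, Hspe1, Clpp and Lonp1, a programme called the mitochondrial unfolded protein response.

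Ucp1 itself read 2.34, 2.02 and 1.54 on UCP1 arrays 1, 2 and 3, against 0.222, 0.232 and 0.278 on control arrays 1, 2 and 3 (log2 difference 3.00 ± 0.234, SE, n = 3 each, limma, adjusted p = 0.00013). The size of this difference is uncertain, since the control readings were low on the array (down to the 15.6 percentile) and were not shown to be above background. With an offset of 0.2 added before log2 it was 2.27, and without the trend in eBayes it did not pass (limma, adjusted p = 0.0855). An exact two-sided permutation test on these 6 values reached p = 0.1, which 3 against 3 arrays cannot go below. Readings are spot intensities on a linear scale, and the array medians were 1.04 to 1.05. Log2 values of the brighter probes correlated at 0.985 to 0.992 among UCP1 arrays, 0.993 to 0.995 among control arrays and 0.976 to 0.988 between groups. The 5 adipocyte markers with a probe (Fabp4, Adipoq, Lpl, Cidec and Pparg) summed to 2280 to 3210 on UCP1 arrays and 2850 to 3250 on control arrays, and 0 of the 5 passed the test. Of 4 preadipocyte and fibroblast markers, Pdgfra (log2 difference 0.67) and Thy1 (0.80) were higher in UCP1 adipocytes (limma, adjusted p = 0.0484 and 0.0319). Dlk1 (0.34) and Col1a1 (-0.21) did not pass and differed in sign (limma, adjusted p = 0.323 and 0.759). The 4 markers summed to 148 to 187 on UCP1 arrays and 116 to 141 on control arrays. Their part in the results below was not tested, and in bulk RNA fewer cells of a type and less RNA per cell cannot be told apart. The 2 leukocyte, 3 endothelial, 3 muscle and 1 osteoblast markers with a probe had summed readings of at most 1.14 on UCP1 arrays and 1.05 on control arrays.

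Import, chaperone and protease genes were mostly lower in UCP1 adipocytes, by small amounts. Tomm22, Tomm40, Timm44, Dnaja3 and Phb fell past the threshold (limma, adjusted p under 0.05 over 36116 probes), by 1.43-fold to 1.81-fold. These 5 were 13.5% of the 37 members, while 2.03% of all tested probes and 2.92% of all genes were called lower. No member was called higher by limma, and 0 had an unadjusted p under 0.05 in that direction. Of all probes 0.8% were called higher, and of all genes 1.13%. The log2 difference was below 0 in 33 of 37 members, with a median of -0.27, and ranged from -1.04 (Trap1) to 0.31 (Tomm5). Over all 18014 genes, 60.1% lay below 0 and the median was -0.08.

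In 17 of 37 members all 3 UCP1 arrays read below all 3 control arrays, and in 0 they read above. Among all tested probes 14.0% lay wholly below and 7.87% wholly above, and among all genes 17.1% lay wholly below. The count of called members depended on single arrays: it was 0 without UCP1 3, 0 without control 1, 0 without control 2 and 1 without control 3, against 9 without UCP1 1 and 8 without UCP1 2. The members' median stayed between -0.36 and -0.21 in these fits.

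The members were bright as a group, and bright probes as a class read lower on the UCP1 arrays. When all probes were ranked by level, 28 of the 37 members were in the top 20%. The 4886 genes in that range had 4.77% called lower, 26.4% wholly below the control arrays, 76.6% below 0 and a median of -0.15. In the top 10% of probes, 84.9% lay below 0 and the median was -0.19. The 99th percentile of intensity was 225, 223 and 185 on UCP1 arrays 1, 2 and 3, against 279, 255 and 258 on control arrays 1, 2 and 3. After quantile normalization, which gives all arrays 1 distribution, 29 of 37 members still lay below 0, but the median was -0.09, beside 0.01 over all genes, and 0 members were called by limma (11 lower and 1 higher at an unadjusted p under 0.05). Calls over all probes were then 446 lower and 567 higher, where the deposited scaling gave 732 lower and 289 higher. The cause of the shift among bright probes was not tested.

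**Figure D1:**
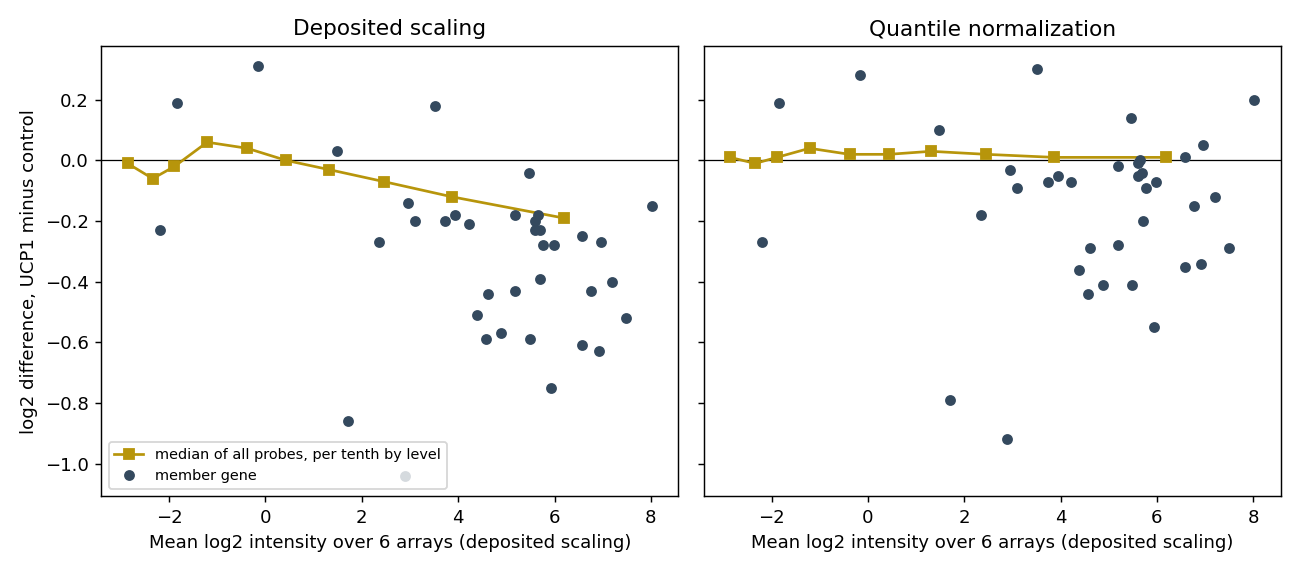
Log2 difference (UCP1 minus control) of each member gene (points) against its mean log2 intensity, with the median of all probes in each of 10 equal classes of level (squares), in the deposited scaling on the left and after quantile normalization on the right. In the deposited scaling the medians of all probes reach -0.19 in the brightest class. After normalization that class is at 0.01 and the members have a median of -0.09.

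At the outer membrane, the receptor Tomm22 and the pore Tomm40 fell, and the other 8 members did not pass. The 10 members had a median of -0.21, and 8 lay below 0. Tomm22, which receives precursors and holds the complex together, read 35.1, 39.8 and 35.6 on the UCP1 arrays, against 59.8, 53.4 and 52.7 on the control arrays. The groups did not overlap, and the gap between them was wider than the spread within either group (log2 difference -0.59 ± 0.122, SE, limma, adjusted p = 0.0283). Tomm40, the channel that every imported chain passes, read 19.5, 23.2 and 16.2 on the UCP1 arrays, against 30.3, 30.0 and 27.3 on the control arrays. Again every UCP1 array was below every control array (-0.59 ± 0.139, SE, limma, adjusted p = 0.047). Both were 1.5-fold lower, and after quantile normalization they were at -0.41 and -0.44 without passing (limma, adjusted p = 0.101 and 0.123). A second, dim Tomm22 probe, with readings of 0.0515 to 0.301 over the 6 arrays, was at -0.22 ± 0.799 (SE). Averaged over both probes, Tomm22 was at -0.40 and not called (limma, adjusted p = 0.497).

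The promoter of Tomm22 (RefSeq, GRCm38.p6, chr15:79670618-79670917, plus strand, 250 bases before to 50 after the start) is shown because it holds the letters CCGGAAG, the core bound by ETS factors such as GABPA, which are known regulators of nuclear genes for mitochondrial proteins. The capitals mark matches on either strand, which begin at bases 204, 207 and 256 of the window, and the first pair overlap.
Tomm22: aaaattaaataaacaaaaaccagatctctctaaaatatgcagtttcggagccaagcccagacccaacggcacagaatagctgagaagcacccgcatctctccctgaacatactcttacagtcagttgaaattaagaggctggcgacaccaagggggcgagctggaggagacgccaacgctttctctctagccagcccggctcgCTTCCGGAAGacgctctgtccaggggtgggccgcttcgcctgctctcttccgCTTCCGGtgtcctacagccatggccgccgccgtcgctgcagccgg

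CCGGAAG was found in 15 of the 34 windows (44.1%) that RefSeq gave for 31 members. It was in 8.86% of all 32851 windows and 11.6% of the 21262 windows of protein-coding genes. Some member windows overlap, so the same site can count more than once. Hspd1 and Hspe1 share a run with CCGGAAG and GAANNTTC, and the Tomm34 windows share a CCGGAAG site. TGCGCA, the core of the site of the factor NRF1, was in 20.6% of member windows, 7.76% of all windows and 9.74% of protein-coding windows. In the same order, CCAAT was in 35.3%, 37.4% and 38.2%, and the heat shock element GAANNTTC in 8.82%, 7.86% and 7.21%. TGATGNAA, the core of sites shared by the stress factors ATF4 and CHOP, was in 0%, 3.97% and 3.6%. Split by a match, the median log2 difference of members with and without was -0.27 and -0.39 for CCGGAAG, -0.39 and -0.27 for TGCGCA, -0.48 and -0.23 for CCAAT, and -0.18 and -0.28 for GAANNTTC. Of the 5 called members, 2 had a match to CCGGAAG, 1 to TGCGCA, 4 to CCAAT and 0 to GAANNTTC. These splits were not tested, both strands were searched for each motif, and a match is a description of letters only.

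Tomm6, a small subunit that steadies the pore, was at -0.61 ± 0.184 (SE) without passing (limma, adjusted p = 0.1). It read 77.7, 89.7 and 66.5 on the UCP1 arrays, against 135, 91.4 and 134 on the control arrays. Control 2 lay close to UCP1 2, so the separation was narrow. Tomm20, the receptor for presequences, read 99.8, 86.3 and 94.1 on the UCP1 arrays, against 142, 113 and 123 on the control arrays. Its groups did not overlap, yet it did not pass (-0.43 ± 0.149, SE, limma, adjusted p = 0.153).

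Tomm70a, the receptor for carrier precursors, was at -0.18 ± 0.151 (SE) on its brighter probe and -0.40 ± 0.109 (SE) on the other, where the groups did not overlap (limma, adjusted p = 0.591 and 0.0726). Tomm34, a cytosolic co-chaperone, was at -0.18 and the small subunit Tomm7 at -0.15. Tomm7 read 291, 229 and 226 on the UCP1 arrays, against 279, 263 and 280 on the control arrays, so UCP1 1 was the highest of the 6. Tomm5 was at 0.31 ± 0.229 (SE) and dim, at 0.716 to 1.18. Tomm20l, a relative of Tomm20, was dimmer still, at 0.141 to 0.631, and its interval of -1.65 to 1.19 set little limit on any difference.

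Tomm40l, a close relative of Tomm40, did not follow it. It read 16.6, 10.6 and 10.3 on the UCP1 arrays, against 10.9, 10.9 and 10.5 on the control arrays (0.18 ± 0.164, SE). Taken within each array, the ratio of Tomm40 to Tomm40l was 1.18, 2.18 and 1.57 on the UCP1 arrays and 2.78, 2.75 and 2.60 on the control arrays. All UCP1 ratios lay below all control ratios, a log2 change of -0.77 ± 0.258 (SE), and the exact permutation test gave its smallest possible p of 0.1 (two-sided, 0.8 adjusted over 8 pairs). Of the 8 pairs of partner or sister genes compared in this way, chosen with their values known, this was the 1 pair whose groups did not overlap.

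**Figure D2:**
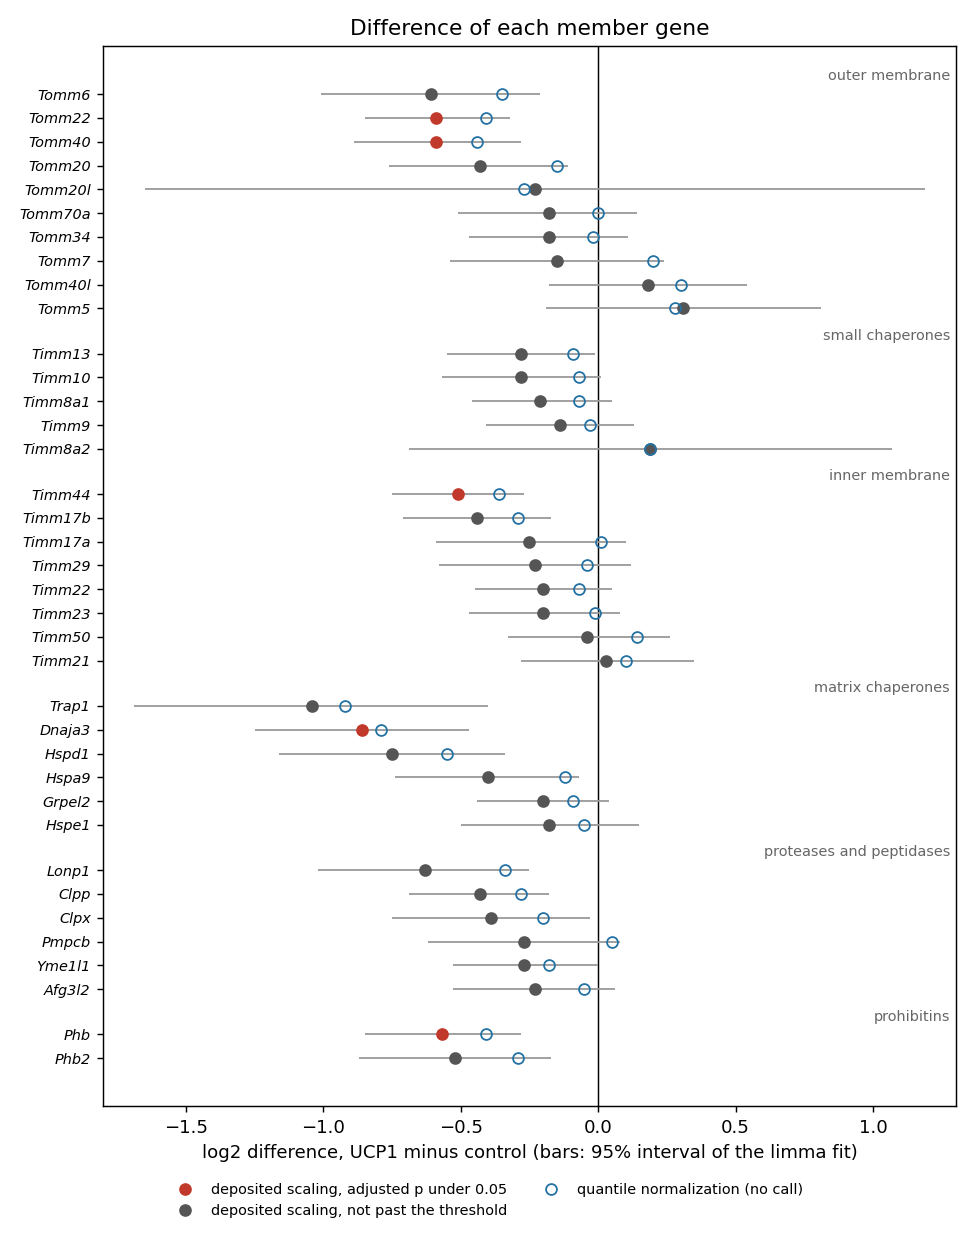
Log2 difference (UCP1 minus control) of each of the 37 members, grouped by role. Filled points are the deposited scaling with 95% intervals from limma, red where the adjusted p was under 0.05, and open circles are the values after quantile normalization, where no member was called. The 5 red points are Tomm22, Tomm40, Timm44, Dnaja3 and Phb, and the open circles sit to the right of the filled points for most members.

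The small chaperones of the intermembrane space, which shield carrier precursors on their way to the inner membrane, had a median of -0.21, and 4 of 5 lay below 0. Of the 5, 0 were called (limma, 1 lower and 0 higher at an unadjusted p under 0.05). Timm10, which forms a ring with Timm9, read 64.6, 54.5 and 54.1 on the UCP1 arrays, against 69.8, 65.9 and 74.1 on the control arrays. Its groups just missed overlapping (-0.28 ± 0.132, SE, limma, adjusted p = 0.31). Timm9 was at -0.14 ± 0.123 (SE), with its other probes at -0.13 and 0.11.

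Timm13 read 52.4, 49.5 and 46.5 on the UCP1 arrays, against 64.8, 59.2 and 56.7 on the control arrays (-0.28 ± 0.124, SE, limma, adjusted p = 0.269). Its partner Timm8a1, the mouse counterpart of the human gene lost in deafness-dystonia syndrome, was at -0.21 ± 0.115 (SE). The within-array ratio of Timm8a1 to Timm13 was nearly constant, at 0.349, 0.338 and 0.367 on the UCP1 arrays and 0.340, 0.340 and 0.320 on the control arrays, and these ranges overlapped. Timm8a2, a relative of Timm8a1, was dim, at 0.205 to 0.383, and its interval ran from -0.69 to 1.07.

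In the inner membrane, Timm44, the anchor that holds the Hspa9 motor at the channel, was the 1 of 8 members that fell, and the 8 had a median of -0.22. It read 17.1, 18.5 and 17.0 on the UCP1 arrays, against 26.8, 24.7 and 23.6 on the control arrays. The 3 UCP1 readings lay close together and below all controls (-0.51 ± 0.110, SE, limma, adjusted p = 0.0319, and 0.0965 after quantile normalization). The channel subunit Timm17b read 21.8, 23.0 and 18.2 on the UCP1 arrays, against 30.0, 27.9 and 27.3 on the control arrays. It too was lower on every UCP1 array, but it did not pass (-0.44 ± 0.122, SE, limma, adjusted p = 0.0799).

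Its sister Timm17a read 108, 82.1 and 76.3 on the UCP1 arrays, against 110, 101 and 101 on the control arrays. Here UCP1 1 reached the control level, and the groups overlapped (-0.25 ± 0.158, SE). Timm23, which forms the channel with them, was at -0.20 ± 0.126 (SE), and Timm22 and Timm29, of the complex that inserts carriers such as UCP1, were at -0.20 and -0.23. None of these passed, and their 95% intervals reached 0.08, 0.05 and 0.12.

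Timm50, the receptor that hands chains to the channel, was at -0.04 ± 0.134 (SE) on its brighter probe, with an interval of -0.33 to 0.26, and at -0.27 ± 0.122 (SE) on the other. Timm21, which links the channel to the outer translocase, read 3.07, 2.37 and 3.09 on the UCP1 arrays, against 2.85, 2.56 and 2.88 on the control arrays. Its groups overlapped fully (0.03 ± 0.143, SE).

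Matrix chaperones had a median of -0.58 over 6 members, and all 6 lay below 0, also after quantile normalization (median -0.34). Dnaja3, the J-domain protein that stimulates Hspa9, was the 1 that passed. It read 1.86, 3.15 and 2.43 on the UCP1 arrays, against 4.96, 4.27 and 4.03 on the control arrays. It was 1.81-fold lower with no overlap (-0.86 ± 0.179, SE, limma, adjusted p = 0.0283), and was at -0.79 after quantile normalization (limma, adjusted p = 0.0594). Its difference ran from -1.05 to -0.67 when single arrays were left out. Its call was lost without control 1, control 2 or UCP1 3 (limma, adjusted p = 0.109, 0.0708 and 0.154). It was also lost without the trend in eBayes (limma, adjusted p = 0.276).

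The Dnaja3 promoter (RefSeq, GRCm38.p6, chr16:4683820-4684119, plus strand) is shown because it combines 3 of the searched motifs. The capitals mark CCAAT at base 117, TGCGCA at bases 208 and 287 and CCGGAAG at base 249.
Dnaja3: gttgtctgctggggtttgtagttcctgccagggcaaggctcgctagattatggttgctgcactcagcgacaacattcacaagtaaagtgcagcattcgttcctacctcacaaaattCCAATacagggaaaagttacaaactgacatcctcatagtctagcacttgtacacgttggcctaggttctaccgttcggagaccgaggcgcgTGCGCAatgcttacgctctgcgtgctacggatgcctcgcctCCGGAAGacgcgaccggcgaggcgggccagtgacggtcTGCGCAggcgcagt

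Trap1, the mitochondrial relative of Hsp90, had the largest difference of the 37 members. It read 3.06, 8.60 and 5.24 on the UCP1 arrays, against 13.4, 10.7 and 8.37 on the control arrays. UCP1 2 lay just above control 3, so the groups overlapped, and it did not pass (-1.04 ± 0.294, SE, limma, adjusted p = 0.0832). It rested on single arrays: without UCP1 2 it was at -1.41 and passed, and without UCP1 1 it was at -0.66 and did not (limma, adjusted p = 0.00386 and 0.13).

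Hspd1, the chaperonin Hsp60, read 35.6, 63.1 and 45.8 on the UCP1 arrays, against 88.5, 77.1 and 71.8 on the control arrays. All UCP1 arrays were lower, a 1.68-fold difference that narrowly missed the threshold in the deposited scaling (-0.75 ± 0.190, SE, limma, adjusted p = 0.0594). After quantile normalization Hspd1 was at -0.55 and further from it (limma, adjusted p = 0.242). Hspe1, the Hsp10 lid that closes the Hspd1 chamber, read 17.1, 11.3 and 15.6 on the UCP1 arrays, against 17.3, 15.8 and 16.0 on the control arrays. UCP1 2 was the lowest, UCP1 1 lay within the control range, and the groups overlapped (-0.18 ± 0.148, SE, limma, adjusted p = 0.608).

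Hspd1 and Hspe1 are neighbours on chromosome 1 that are read in opposite directions. The start of Hspe1 and 1 annotated start of Hspd1 are 216 bases apart. The promoter is shown because the log2 differences of the pair were unequal (-0.75 and -0.18), though their ratio, given below, did not separate the groups. The window is that of Hspe1 (RefSeq, GRCm38.p6, chr1:55087898-55088197, plus strand). The capitals mark a run in which GAANNTTC at base 167 overlaps CCGGAAG matches at bases 171 and 174. The same run lies in 1 Hspd1 window on the other strand. Another Hspd1 window (chr1:55088194-55088493), from a different start, does not hold the run and had a match to CCAAT only.
Hspe1: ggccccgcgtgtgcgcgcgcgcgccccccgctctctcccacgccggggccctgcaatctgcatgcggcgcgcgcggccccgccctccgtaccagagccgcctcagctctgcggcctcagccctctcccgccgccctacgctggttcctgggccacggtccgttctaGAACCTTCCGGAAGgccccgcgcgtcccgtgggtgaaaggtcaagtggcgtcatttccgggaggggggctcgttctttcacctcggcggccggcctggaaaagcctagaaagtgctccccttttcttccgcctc

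The within-array ratio of Hspd1 to Hspe1 was 2.08, 5.58 and 2.94 on the UCP1 arrays and 5.13, 4.89 and 4.50 on the control arrays. UCP1 1 and UCP1 3 were below the controls and UCP1 2 was above them. The change in the ratio was -0.57 ± 0.422 (SE) on the log2 scale, with overlapping groups (exact permutation test, two-sided, p = 0.4).

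Hspa9, the Hsp70 that drives the import motor, read 120, 134 and 130 on the UCP1 arrays, against 161, 157 and 191 on the control arrays. The groups were apart, yet the difference of -0.40 ± 0.154 (SE) did not pass (limma, adjusted p = 0.2), and it was -0.12 after quantile normalization. Grpel2, which resets Hspa9 by releasing its nucleotide, read 8.42, 7.63 and 7.98 on the UCP1 arrays, against 9.16, 8.62 and 9.88 on the control arrays (-0.20 ± 0.110, SE).

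**Figure D3:**
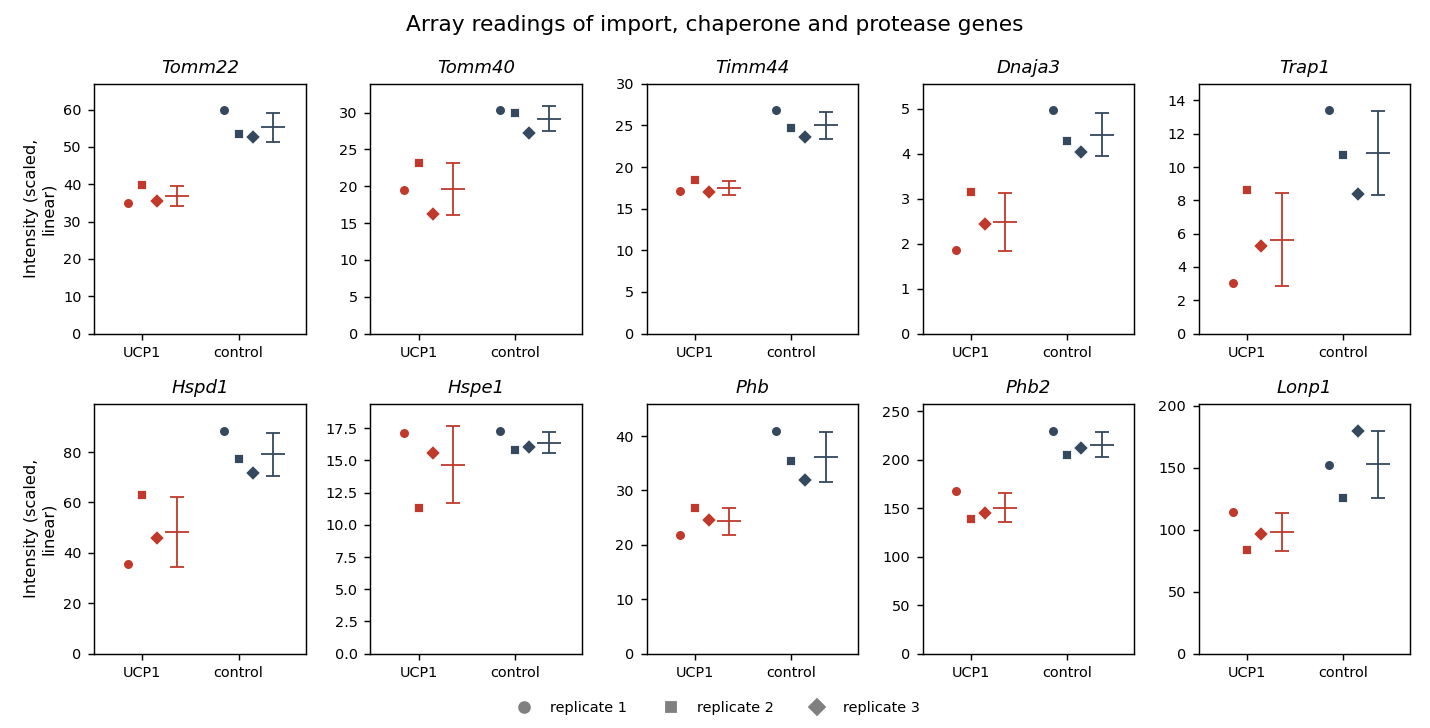
Intensity (linear, deposited scaling) of 10 members on each array, UCP1 left and control right, with replicates 1, 2 and 3 as circle, square and diamond and the mean ± SD beside them. Tomm22, Tomm40, Timm44, Dnaja3, Hspd1, Phb, Phb2 and Lonp1 lie lower on all UCP1 arrays, while Trap1 and Hspe1 overlap.

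No protease or peptidase was called (limma), although all 6 lay below 0, 4 had an unadjusted p under 0.05 and the median was -0.33. Lonp1, the ATP-driven protease of the matrix, read 114, 83.7 and 96.9 on the UCP1 arrays, against 152, 126 and 180 on the control arrays. The groups did not overlap, and the controls were widely spread (-0.63 ± 0.178, SE, limma, adjusted p = 0.0815). Clpp, the proteolytic chamber, read 32.1, 32.5 and 29.6 on the UCP1 arrays, against 45.7, 42.7 and 39.1 on the control arrays. It was lower on each UCP1 array (-0.43 ± 0.118, SE, limma, adjusted p = 0.0741).

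Clpx, the unfoldase that feeds Clpp, was at -0.39 ± 0.164 (SE), with UCP1 1 at 57.6 inside the control range of 52.9 to 66.7. The ratio of Clpp to Clpx did not separate the groups (exact permutation test, two-sided, p = 1). Yme1l1, the protease that faces the intermembrane space, was at -0.27 ± 0.122 (SE) with groups that did not overlap. Pmpcb, a subunit of the peptidase that removes presequences, read 137, 103 and 103 on the UCP1 arrays, against 135, 128 and 148 on the control arrays. UCP1 1 lay within the control range (-0.27 ± 0.162, SE).

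Afg3l2, the protease that faces the matrix, gave different answers on its probes. The brighter probe read 52.3, 43.2 and 39.6 on the UCP1 arrays, against 53.5, 49.5 and 55.1 on the control arrays, with overlap (-0.23 ± 0.136, SE, limma, adjusted p = 0.427). The dimmer probe read 4.48, 5.28 and 4.90 on the UCP1 arrays, against 8.03, 7.13 and 6.81 on the control arrays. On that probe the groups lay apart and it was called lower (-0.58 ± 0.119, SE, limma, adjusted p = 0.0269, and 0.0533 after quantile normalization).

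The prohibitins Phb and Phb2, which build ring scaffolds in the inner membrane and bind the matrix-facing proteases, were both lower on every UCP1 array on their brighter probes, and Phb passed. Phb read 21.8, 26.8 and 24.5 on the UCP1 arrays, against 41.0, 35.5 and 32.0 on the control arrays. It was 1.48-fold lower with no overlap (-0.57 ± 0.132, SE, limma, adjusted p = 0.044, and 0.154 after quantile normalization). Phb2 read 168, 139 and 145 on the UCP1 arrays, against 230, 205 and 212 on the control arrays, also apart, without passing (-0.52 ± 0.160, SE, limma, adjusted p = 0.107).

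The other probes of both did not bear this out. The dim Phb probe read 0.836, 0.873 and 1.42 on the UCP1 arrays, against 0.600, 0.756 and 0.616 on the control arrays, which is higher on each UCP1 array (0.63 ± 0.242, SE, limma, adjusted p = 0.199). Averaged over both probes, Phb was at 0.03. The other Phb2 probe was at -0.04 ± 0.177 (SE) with overlapping groups.

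The 3 UCP1 arrays ordered the members in different ways. In 22 members UCP1 1 read highest of the UCP1 arrays, with a median difference of -0.20 and 0 calls. In 11 members UCP1 2 read highest, and these held all 5 called members, Trap1, Hspd1, Hspa9, Tomm6, Timm17b and Clpp, with a median of -0.59. In the other 4 members UCP1 3 read highest, with a median of -0.10 and 0 calls. The sorting used the same UCP1 readings that make each difference and call. A link between class and calls is therefore partly built in, and no conclusion is drawn from it. The same sorting was applied beyond the members. Among all genes in the top 20% by level, 114 of the 769 with UCP1 2 highest were called lower by limma (median -0.30). With UCP1 1 highest it was 109 of 4002 (median -0.13), and with UCP1 3 highest 10 of 115 (median -0.11). UCP1 1 read highest in 59.5% of members, against 52.5% of all genes and 81.9% of those in the top 20% by level. UCP1 2 read highest in 29.7% of members, against 28.3% and 15.7%. As a whole, the members' median distance from the control mean was -0.13 on UCP1 1, -0.33 on UCP1 2 and -0.38 on UCP1 3, against 0.08, -0.05 and -0.04 on control arrays 1, 2 and 3. For the brighter probes it was 0.03, -0.13 and -0.16 on UCP1 arrays 1, 2 and 3. The spread of these arrays around their group means has no cause given in the labels, and none was tested.

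**Figure D4:**
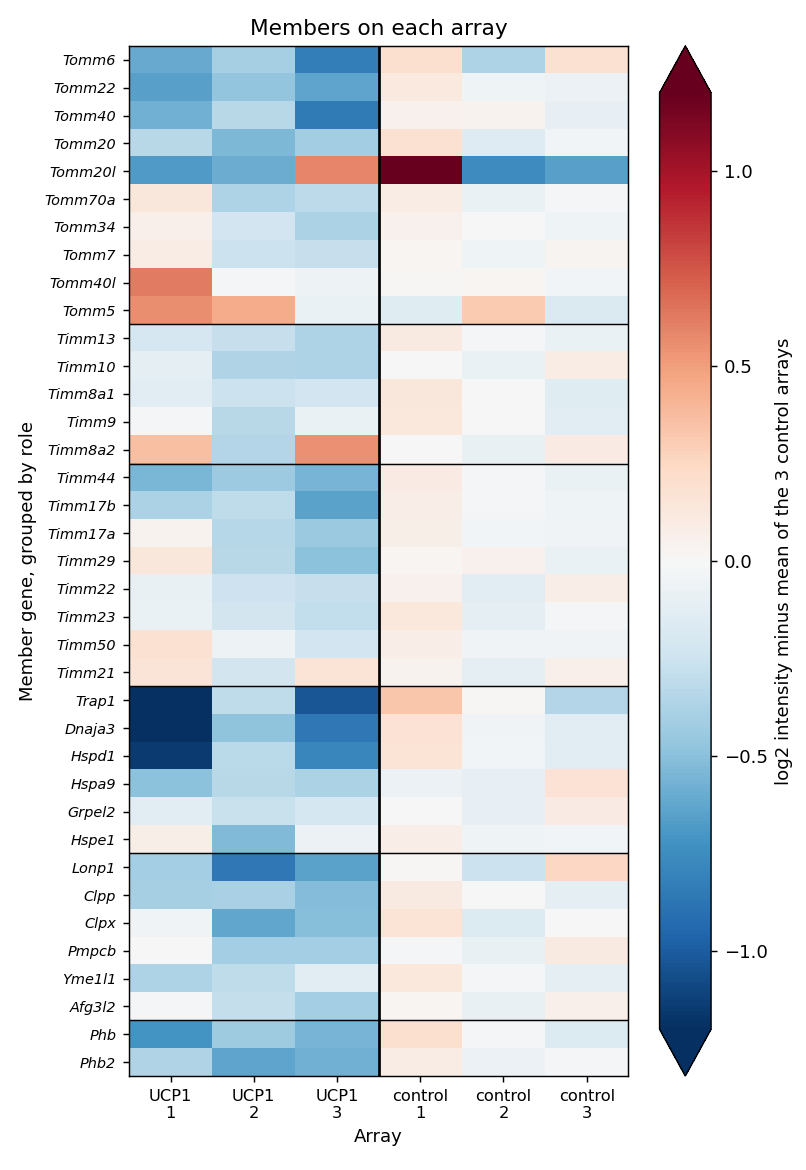
Log2 intensity of each member on each array minus its mean over the 3 control arrays, with UCP1 arrays left of the line and control arrays right, blue below and red above that mean. Trap1, Dnaja3 and Hspd1 are darkest blue on UCP1 1, where Tomm40l and Tomm5 are red, and the median member is at -0.13 on UCP1 1, -0.33 on UCP1 2 and -0.38 on UCP1 3.

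Other genes of the same pathway, 31 measured of 34 listed, were mostly below 0 as well. Gfer, the sulfhydryl oxidase that recharges the oxidative import of intermembrane space proteins, was the 1 called lower (3.23%). By limma 0 were called higher (0 also at an unadjusted p under 0.05). Over all genes 2.92% were called lower. The 4886 bright genes described above held 24 of the 31, and of those 4886 genes 4.77% were called lower. The share called lower was therefore no higher than among bright genes. Of the related genes 96.8% lay below 0, against 76.6% of the bright genes. Gfer read 9.55, 7.76 and 9.25 on the UCP1 arrays, against 13.8, 12.7 and 12.3 on the control arrays. The groups lay apart (-0.55 ± 0.119, SE, limma, adjusted p = 0.0322), and it passed after quantile normalization too (-0.43, limma, adjusted p = 0.0409). The second Gfer probe read 2.43, 2.14 and 2.61 on the UCP1 arrays, against 2.92, 2.53 and 2.68 on the control arrays, with overlap (-0.18 ± 0.136, SE, limma, adjusted p = 0.55). Averaged over both probes, Gfer was at -0.37 and not called (limma, adjusted p = 0.116), nor was it called without the trend in eBayes (adjusted p = 0.266). Its call was also lost without UCP1 3 and without each of the 3 control arrays, with adjusted p-values of 0.132, 0.134, 0.0991 and 0.0655 in that order (limma).

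Across these 31 genes the median was -0.29, 30 lay below 0, and 23 did so after quantile normalization, with a median of -0.11. They include the outer membrane assembly proteins Samm50 and Mtx1 to Mtx3, the oxidase receptor Chchd4, peptidases such as Mipep and proteases such as Oma1. The transcription factors linked to the mitochondrial stress response, Atf5, Ddit3, Cebpb and Atf4, were all below 0 in the deposited scaling and none was called. Among the 72 mitochondrial ribosomal protein genes measured, whose products use the same import route, 6 (8.33%) were called lower and 0 higher by limma. At an unadjusted p under 0.05 the counts were 24 and 0. Their median was -0.26, close to that of the members. The 4886 bright genes described above held 58 of the 72, and of those 4886 genes 4.77% were called lower, with a median of -0.15. Over all genes 2.92% were called lower. After quantile normalization limma called 2 of the 72 lower and 1 higher, and their median was -0.08. The difference between the members, the related genes and the ribosomal protein genes was not tested.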

How the data were processed

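The deposited table held spot intensities from one-colour CodeLink mouse whole genome arrays, on a linear scale; the deposited intensities had array medians of 1.04 to 1.05. For scanning, background correction and scaling, the method is not given in the sources used. Total RNA was biotin-labelled, per the labels' protocols. Groups came from the source field. The code -9999 was treated as missing, and 80 to 159 values per array at or below 0 were raised to that array's lowest positive value before log2. Probes with at least 2 values per group were tested, 36116 of 36227. The platform annotation named 21615 probes by 1 gene, 681 by several and 13931 by none. limma 3.58.1 in R 4.3.3 compared the groups (lmFit, then eBayes with a trend on intensity), two-sided and with Benjamini-Hochberg adjustment over all tested probes at 0.05. Intensities are relative, so total RNA cannot be read from them, and 3 arrays per group limit the precision. The fit was tested on simulated data with known changes placed in brighter probes. It recovered 15% of log2 changes of 0.5, 80% of those of 1 and 100% of those of 2. Of its 115 calls 10 were false, and it made 0 calls when nothing changed. A member that did not pass may therefore still differ by a small amount. Alternatives were an offset of 0.2 before log2, quantile normalization, cyclic loess, brighter probes alone, probes complete on all arrays, robust eBayes, eBayes with no trend, a replicate block, averaging probes per gene and leaving out each array.

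Promoter windows came from RefSeq (GRCm38.p6). Members, lists, motifs and partner pairs were chosen with earlier results of these data known. Every member could be named. The called members and, per role, those with the largest and smallest difference and the highest reading were to be given with each array, as were called genes of the related list; others were given more detail after their values were seen.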

Additional observations from a re-analysis of the deposited data

How the results depend on the processing

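The members' median log2 difference kept its sign under all 17 alternatives, but the number called lower did not hold. Members called lower numbered 0 (11 at an unadjusted p under 0.05) with quantile normalization, 0 (12) with cyclic loess and 0 (14) without the trend. They numbered 2 with the replicate block (Dnaja3 and Tomm40) and 3 with probes averaged per gene (Dnaja3, Timm44 and Tomm40). Brighter probes alone, where fewer probes share the adjustment, gave 12. Leaving out 1 array gave 0 to 9 called lower and 0 called higher, medians of -0.36 to -0.21 and 83.8% to 94.6% of members below 0. The members' median was -0.09 with quantile normalization and -0.10 with cyclic loess. Related genes called lower numbered 2 with the offset, 3 with robust eBayes, 4 with brighter probes alone, 0 without the trend (6 at an unadjusted p under 0.05) and 0 to 7 without single arrays, where 0 were called higher. Their median was -0.11 with quantile normalization, -0.12 with cyclic loess and -0.38 to -0.24 without single arrays. Over all probes, calls lower and higher were 446 and 567 with quantile normalization, 461 and 518 with cyclic loess, 1716 and 523 with brighter probes alone, 0 and 0 without the trend (4951 at an unadjusted p under 0.05), 551 and 225 with the replicate block, and 93 to 1610 and 66 to 395 without single arrays. Phb was at 0.03 with probes averaged per gene, because its probes differ in sign. Of 2 settings added after seeing the data, brighter probes without the trend gave 11 members, 4 related genes, and 1645 lower and 490 higher probes, and quantile normalization of brighter probes gave 1 member (Dnaja3), 847 higher probes and medians of -0.09 and -0.11. The cause of these changes was not tested. The main fit used no pairs, because the digit in the titles UCP1, UCP2 and UCP3 need not be a replicate number. Deviations of same-numbered arrays from their group means correlated at -0.24, -0.00693 and 0.104. Those of differently numbered arrays correlated at -0.364 to 0.35. With 3 arrays per group these values constrain one another, so they cannot show whether arrays were paired.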
